A study of Rattus norvegicus with 24 samples.

Results

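Gene expression was measured in the lumbar dorsal root ganglia (DRG) of rats that had received vincristine or saline and were then all given morphine. The 4 vincristine-morphine treated rats were compared with the 4 saline-morphine treated rats, that is 8 of the 24 arrays of the study. The 8 rats were taken by their labels, which give the pre-treatment, the second treatment and the replicate number. All were Sprague-Dawley rats of 3 months. The pre-treatment, vincristine or its saline vehicle, was injected over 10 days, and every rat of both groups then received morphine for 5 days, so that the controls were not free of opioid. The same vincristine comparison in rats given oxycodone (4 against 4) or saline (4 against 4) as the second treatment shares no array with it and serves as the comparison. RNA of each rat went onto 1 array, an Illumina RatRef-12 BeadChip with 22517 probes, so the replicates are separate animals.

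The DRG holds the cell bodies of sensory neurons, wrapped by satellite glia, with Schwann cells, fibroblasts, macrophages and vessels between them. Vincristine binds tubulin, disassembles microtubules and is used against leukaemias and lymphomas, with painful sensory neuropathy as its limiting side effect. Morphine acts on opioid receptors, which part of the sensory neurons carry. Red blood cells leave the marrow as reticulocytes, which have lost the nucleus but still carry mRNA of globins and of proteins that remodel the cell, so whole tissue RNA holds some red cell mRNA. In such bulk RNA, more cells of a type and more RNA per cell cannot be told apart.

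Markers of the tissue were present in all 8 rats: the neuronal genes Prph, Nefh, Scn10a, Isl1 and Tac1, the satellite glia gene Fabp7 and the Schwann cell genes Mbp and Pmp22 were detected on 8 of 8 arrays. The probes for Calca and Kcnj10 were not detected on any of the 8. A probe was called detected at a detection p of at most 0.0005, and 6241 to 6907 probes per array reached that. Probes detected on at least 4 of the 24 arrays were kept, which left 7043 probes for 5435 named genes. Values are log2 signals after background correction and quantile normalization, and differences are vincristine-morphine minus saline-morphine on that scale. In the deposited table the arrays stood in 4 runs of 6 neighbouring columns with 1 array of each group in each run, here called column sets. What a set stands for is not given in the sources, and it explained 99.4% of the variance along component 1 of a principal component analysis. The median standard error of a difference was 0.118, and 0.0828 in a fit with the column set as a block. Skeletal muscle genes, markers of tissue that the dissection could hold, were high on the arrays of vincristine-morphine rats 1 and 3 and saline-morphine rat 4 (mean of 15 genes 9.15, 8.97 and 9.35) and between 6.15 and 6.76 on the other 5.

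After vincristine and morphine, red cell genes were higher and the leucine zipper protein gene Luzp1 was lower. Of 7043 probes, 5 passed an adjusted p of 0.05 in limma (Benjamini-Hochberg), or 0.071% of those tested: Alox15, Hba-a3, Hbb-b1 and Hbb rose (0.0568%) and Luzp1 fell (0.0142%). With the column set as a block 8 probes passed (0.114%). These were the same 5 with Hemgn, Ahsp and ILMN_1359594, a probe with no gene name, all 3 higher. At an unadjusted p under 0.05, 64 probes were higher (0.909%) and 91 lower (1.29%), so that 41.3% were higher. Together these were 2.2% of the probes, less than a threshold of 0.05 gives by chance. With the column set as a block it was 195 higher and 256 lower, 451 of 7043 in all (43.2% higher). Those 451 are more than the threshold gives by chance. Without the block, the spread between column sets stays in the standard error (median 0.118 against 0.0828), so neither share measures the amount of difference. With no block and arrays centred on their medians in place of quantile normalization, 16 probes were higher and 43 lower (27.1% higher). This centring moved the median of all probes to -0.11, and Luzp1 no longer passed (adjusted p = 0.221). Groups that did not overlap were found for 45 probes in each direction, 0.639% of the probes tested in each (1.28% in all). Chance alone gives a share of 0.0286 for 4 against 4 rats (70 regroupings), more than was seen. A lack of overlap named for a gene below is therefore a description and not support for a difference. Alox15 and Hba-a3 passed whichever of the 8 rats was left out. Hbb-b1 did not without vincristine-morphine rat 1 or 3 or saline-morphine rat 4 (adjusted p = 0.0625 to 0.0699), Hbb also not without saline-morphine rat 1 or 3 (0.0554 to 0.107 over the 5), and Luzp1 passed only without vincristine-morphine rat 2 or 4 (0.0554 to 0.179 in the other 6).

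Alox15, the arachidonate 15-lipoxygenase that attacks mitochondrial membranes in maturing reticulocytes, showed the largest difference of any probe. Its log2 signal was 11.56, 10.38, 10.74 and 9.94 in vincristine-morphine rats 1 to 4, where it was detected on all 4 arrays. It was 5.09, 6.22, 5.87 and 5.70 in saline-morphine rats 1 to 4, where it was detected on none. The lowest vincristine rat lay far above the highest control. As the control level was below detection, the change has only a bound, at least 19.3-fold up-regulated (adjusted p = 6.58e-07, limma). That p rests on control signals at background, and Alox15 passed the detection filter through vincristine-treated rats only. In the fit to all 22517 probes with no filter it was called as well. Within the 4 column sets the difference was 4.84, 5.34, 4.52 and 5.04.

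The globin genes, which encode the chains of haemoglobin, followed. Hba-a3, an alpha-globin gene, read 11.21, 10.36, 10.96 and 10.31 in the 4 vincristine-morphine rats and 7.66, 8.05, 7.96 and 7.81 in the 4 saline-morphine rats. Every vincristine rat lay above every control, by a mean of 2.84 ± 0.36 (SE), a 7.16-fold difference (adjusted p = 0.000371, limma). Hbb-b1, a beta-globin gene, read 13.51, 12.83, 13.39 and 12.85 after vincristine and 11.56, 11.50, 11.12 and 10.97 in controls, a difference of 1.86 ± 0.30 or 3.62-fold (adjusted p = 0.00884). Hbb, the other beta-globin gene, read 14.21, 14.08, 14.01 and 13.89 after vincristine and 12.85, 13.18, 12.80 and 12.41 in controls, a difference of 1.24 ± 0.21 or 2.35-fold (adjusted p = 0.0166). For neither gene did the groups overlap. Hba-a1, another alpha-globin gene, read 13.69, 14.01, 13.98 and 14.01 against 13.52, 13.29, 13.33 and 13.07. Its groups did not overlap either, but the difference of 0.62 ± 0.17 did not pass the adjustment (adjusted p = 0.681). Globin genes are near-identical copies, so signal can be shared between these probes and their separate sizes are uncertain. After vincristine, Hba-a1 and Hbb also lay close to the top of the signal scale. The Schwann cell gene Pmp22, at percentile 99.9956 of the probes, had a mean of 14.25 over the 8 arrays. Whether this held the differences of Hba-a1 and Hbb down was not tested.

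**Figure D1:**
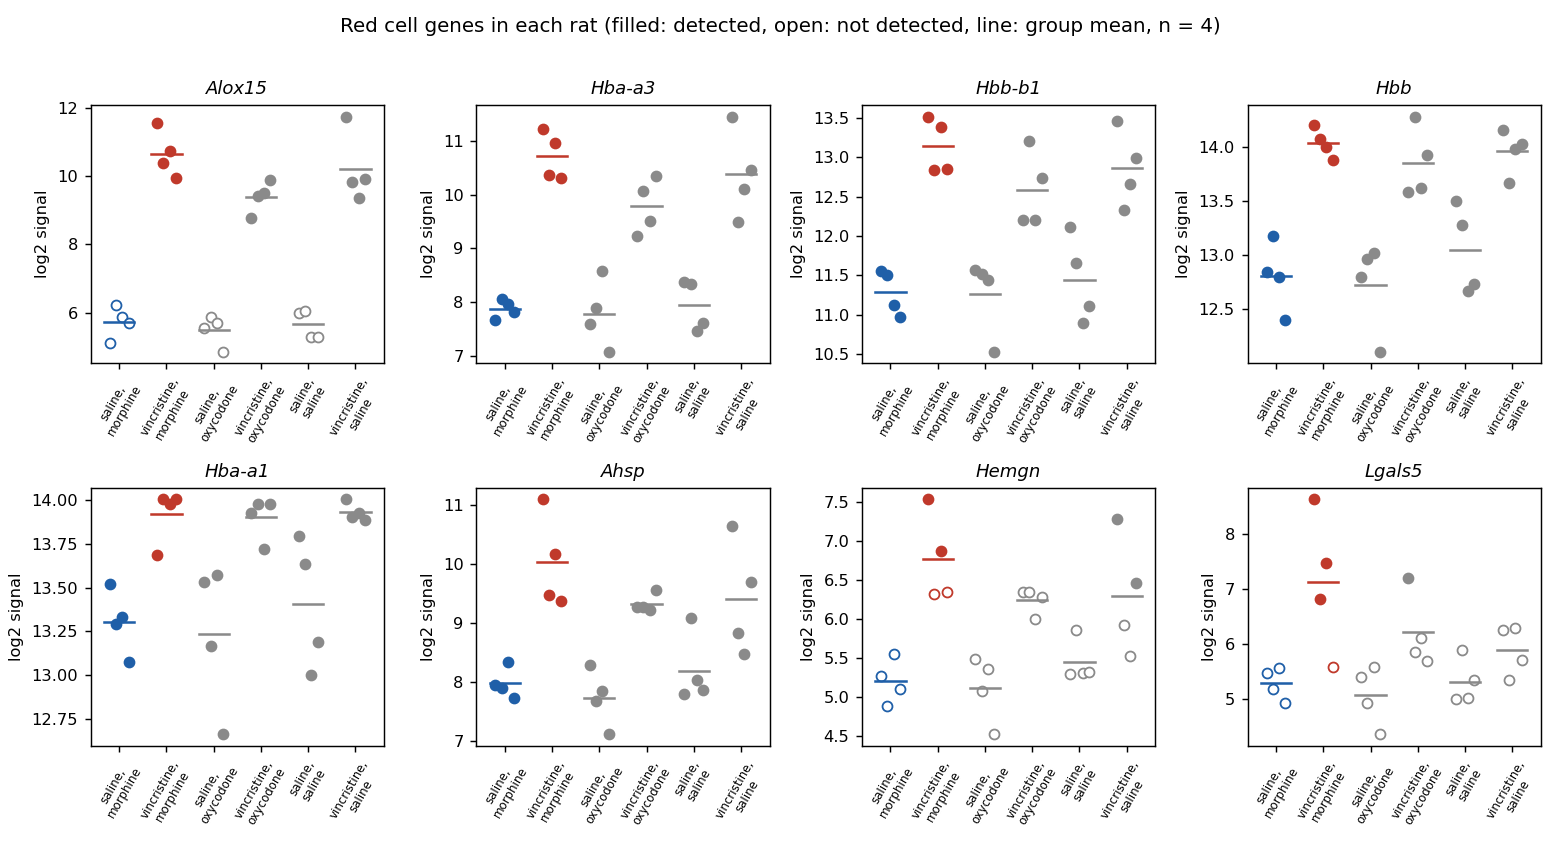
Log2 signal (y axis) of 8 red cell genes in each rat of the 6 groups (x axis), with saline-morphine in blue and vincristine-morphine in red; filled points were detected, open points were not, and lines are group means of 4 rats. In all 8 genes every vincristine-morphine rat lies above every saline-morphine rat, and Alox15 is detected in no rat pre-treated with saline.

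Other genes of red cell precursors also had higher levels. Ahsp, the chaperone of free alpha-globin, read 11.10, 9.47, 10.18 and 9.38 in vincristine-morphine rats and 7.95, 7.90, 8.34 and 7.73 in saline-morphine rats, a difference of 2.05 ± 0.41 (SE; adjusted p = 0.0554, and 0.0207 with the column set block). Hemgn, a nuclear protein of blood-forming cells, read 7.54, 6.32, 6.87 and 6.35 after vincristine and 5.27, 4.89, 5.56 and 5.11 in controls, a difference of 1.56 ± 0.30 (adjusted p = 0.0502, and 0.027 with the block). Hemgn was detected in 2 vincristine rats and in no control, so that the fold can only be bounded. The bound, 1.31 or more, uses the signals of all 4 vincristine rats, also those without detection, and is approximate. Hemgn passed the detection filter through vincristine-treated rats only, and was not called in the fit with no filter. Lgals5, a galectin that rat reticulocytes shed with their vesicles, read 8.63, 6.83, 7.47 and 5.58 after vincristine and 5.48, 5.18, 5.57 and 4.94 in controls. It was detected in 3 vincristine rats and in no control. The bound, 1.67-fold or more, likewise uses the vincristine rat without detection and is approximate. The difference of Lgals5 did not pass (limma adjusted p = 0.407, 0.202 with the block). For these 3 genes the groups did not overlap, though for Lgals5 vincristine rat 4 lay just above the highest control. Epb41, the protein 4.1 of the red cell skeleton, and Bpgm, the enzyme that makes the bisphosphoglycerate that lowers the oxygen affinity of haemoglobin, differed by 0.59 ± 0.18 and 0.25 ± 0.09, with overlapping groups and no passing adjusted p.

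Over the lists, all 4 globins measured and 12 of 14 red cell precursor genes were higher, against 47.8% of all 5435 genes, with medians of 1.55 and 0.15 against -0.01 for all genes. With no detection filter, which brings in 4 more globin genes, the globin median was 0.32, and with median centring, which moved all probes by -0.11, the red cell precursor median was 0.03. Of the 14, 6 were higher at an unadjusted p under 0.05, against 0.957% of all genes, Alox15 passed the adjustment, and Hemgn and Ahsp passed with the block. The 8 members not named above, among them the ankyrin gene Ank1 (0.04) and the carbonic anhydrase gene Car2 (0.10), which other cells also express, differed by -0.13 to 0.17. A further 13 red cell precursor genes with probes did not pass the detection filter, among them the anion exchanger Slc4a1 and the transcription factors Gata1, Klf1 and Tal1. Of these 13, 12 were detected on none of the 8 arrays, and 12 had a higher mean in the vincristine-morphine rats, on signals near background. The 13 included Rhd, the Rh blood group antigen, and Add2, the beta subunit of adducin in the red cell skeleton. Both passed when the detection limit was loosened to a p of 0.05 (12740 probes), with differences of 1.21 ± 0.22 and 1.07 ± 0.20 (adjusted p = 0.0278 and 0.0327). Add2 was detected in 1 vincristine-morphine rat, and Rhd in none of the 24, so these differences rest on signals near background. Alas2, which starts haem synthesis in red cells, and the transferrin receptor Tfrc were not detected on any of the 8 arrays. Alox15, Hemgn and Lgals5 passed the detection filter through vincristine-treated rats only, so these counts and medians describe the genes and do not support a difference. Of 15 measured genes of haem synthesis and iron, 7 were higher and 8 lower.

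Among the vincristine-morphine rats, rat 1 was the highest of the 4 for 8 of the 10 red cell genes named, and rat 4 the lowest for 6. Rats 1 and 3 were also the ones with high skeletal muscle genes. Without the 3 rats with high muscle genes (2 vincristine-morphine against 3 saline-morphine rats) Alox15 still passed, at 4.43 ± 0.54 (adjusted p = 0.00269). Hba-a3 was then 2.44 ± 0.48 higher (adjusted p = 0.39), Hbb-b1 1.45 ± 0.40 and Hbb 1.04 ± 0.29, none past the adjustment. Ahsp was 1.36 higher in place of 2.05, Hemgn 1.10 in place of 1.56 and Lgals5 0.79 in place of 1.83, and Luzp1 was at -0.47 in place of -0.63 (adjusted p = 0.998). In column sets 1 and 3, where neither rat had high muscle genes, the differences were 2.65 and 2.39 for Hba-a3. Of the 4 platelet genes measured all were higher and none passed. Platelet factor 4, Pf4, read 11.64, 8.93, 8.40 and 8.82 after vincristine and 8.05, 8.89, 7.70 and 8.49 in controls, with overlapping groups and the highest value in vincristine rat 1. Its difference was 1.16 ± 0.58, and 0.43 without that rat. Of 19 neutrophil genes on the array 4 were measured, 2 of them higher, and of 19 lymphocyte genes 2 were measured, 1 of them higher.

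The 250 bases before the start sites of the globin genes and of Hemgn are shown because these genes head the red cell group. They are from RefSeq (GRCr8), whose promoter table holds 5 of the 7 named genes called with or without the block, Luzp1 among them. Capitals mark a motif of GATA factors, GATA with A or T before it and A or G after it, and the CACCC box, CCNCNCCC, each searched on both strands. The table holds 2 start sites of Hemgn, and the one further along the strand is shown.
Hba-a3 (chr10:15816944-15817193, minus strand): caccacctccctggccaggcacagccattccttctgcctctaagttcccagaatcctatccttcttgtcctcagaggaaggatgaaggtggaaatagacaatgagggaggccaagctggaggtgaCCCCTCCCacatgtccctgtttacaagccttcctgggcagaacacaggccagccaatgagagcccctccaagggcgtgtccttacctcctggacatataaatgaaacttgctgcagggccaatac
Hba-a1 (chr10:15842581-15842830, minus strand): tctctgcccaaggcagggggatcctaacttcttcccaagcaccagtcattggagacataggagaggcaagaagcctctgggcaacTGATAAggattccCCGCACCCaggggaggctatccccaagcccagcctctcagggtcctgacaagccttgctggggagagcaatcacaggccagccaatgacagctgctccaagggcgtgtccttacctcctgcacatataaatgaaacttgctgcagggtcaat
Hbb-b1 (chr1:167643521-167643770, minus strand): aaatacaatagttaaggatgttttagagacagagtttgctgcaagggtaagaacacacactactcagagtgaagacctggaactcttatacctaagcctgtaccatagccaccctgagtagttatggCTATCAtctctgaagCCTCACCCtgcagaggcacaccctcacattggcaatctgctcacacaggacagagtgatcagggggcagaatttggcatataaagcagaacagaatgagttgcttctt
Hbb (chr1:167663722-167663971, minus strand): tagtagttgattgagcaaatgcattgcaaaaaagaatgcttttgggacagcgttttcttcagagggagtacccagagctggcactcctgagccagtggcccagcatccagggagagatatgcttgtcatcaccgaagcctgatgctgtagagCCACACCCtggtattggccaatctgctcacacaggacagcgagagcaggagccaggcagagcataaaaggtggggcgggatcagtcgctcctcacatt
Hemgn (chr5:65485822-65486071, minus strand): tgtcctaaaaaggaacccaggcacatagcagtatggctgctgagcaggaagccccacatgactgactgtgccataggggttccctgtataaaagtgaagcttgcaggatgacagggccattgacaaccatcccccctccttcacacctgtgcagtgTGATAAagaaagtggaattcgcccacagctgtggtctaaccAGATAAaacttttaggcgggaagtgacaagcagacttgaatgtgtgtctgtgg

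A match to CCNCNCCC, the pattern used for the CACCC box, lay in the window of all 4 globin genes, beginning 98 to 152 bases before the start. In Hba-a3 the matched letters were CCCCTCCC, which do not hold CACCC. The pattern was found in 42.8% of 33469 promoters of the same length. It was also in 18 of 22 fibroblast and collagen genes with a promoter in the table, a list with mostly lower means. A GATA motif lay in the windows of Hba-a1 and Hbb-b1 and at 2 places in the Hemgn window shown, not in that of its other start site, and in 27% of all promoters. For Hemgn the CCNCNCCC pattern was the other way, in the window of the other start site and not in the one shown. The alpha-globin genes shared 77 of 100 bases near the start when set against each other with a shift of 2. A match of letters is a description and not a binding site.

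Among the lower genes, Luzp1, which encodes a leucine zipper protein of the actin cytoskeleton, was the one that passed. It read 9.26, 9.53, 9.20 and 9.61 in vincristine-morphine rats and 10.06, 10.07, 9.99 and 9.99 in saline-morphine rats. The controls lay close together and all vincristine rats lay below them, by 0.63 ± 0.11 on average (SE), a 1.55-fold lower level (adjusted p = 0.0229, and 0.0207 with the block). Within the 4 column sets the difference was -0.45, -0.81, -0.46 and -0.79. G3bp2, a stress granule protein that binds RNA, read 5.75, 6.34, 5.89 and 6.07 after vincristine and 6.72, 6.70, 6.59 and 6.84 in controls. It was detected in all 4 controls and in no vincristine rat, at least 1.16-fold lower (adjusted p = 0.0614, and 0.0838 with the block). Lamc1, the gamma-1 chain of laminin in basement membranes, was likewise detected in 4 controls (6.49, 7.10, 6.89 and 7.15) and in no vincristine rat (5.97, 6.48, 6.02 and 6.43), at least 1.33-fold lower (adjusted p = 0.498). Pacsin2, which bends membranes in endocytosis, had the same detection pattern, at 6.28, 6.41, 6.09 and 6.34 against 6.52, 6.75, 6.80 and 6.73.

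Cnot2, a subunit of the CCR4-NOT complex that shortens mRNA tails, was at 6.66, 6.72, 6.44 and 6.68 in the vincristine rats and 7.02, 7.03, 7.04 and 7.11 in the controls, which again lay close together. Safb, a scaffold attachment factor of the nucleus, was at 8.002, 8.10, 8.21 and 8.12 against 8.35, 8.58, 8.54 and 8.48. These 2 differences, -0.43 ± 0.10 and -0.38 ± 0.10 (SE), left no overlap between the groups and did not pass (adjusted p = 0.374 and 0.604). Cdk16, a cyclin-dependent kinase active in neurons, Rwdd1 and the ubiquitin ligase Rnf41 were also lower in every vincristine rat than in any control, by 0.37, 0.38 and 0.49, with adjusted p of 0.681 to 0.768. Zfp593, a zinc finger protein, was lower by 0.15 ± 0.14 with overlapping groups. Of 12 tubulin genes 6 were higher and 6 lower. Tubb6, the class V beta-tubulin, was lower in each vincristine rat than in each control (8.02, 7.87, 8.20 and 8.05 against 8.20, 8.30, 8.30 and 8.26), which did not pass. Of 44 genes of microtubule-binding proteins and motors, 19 were higher and 25 lower, and Luzp1, a member of that list, was the one called.

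**Figure D2:**
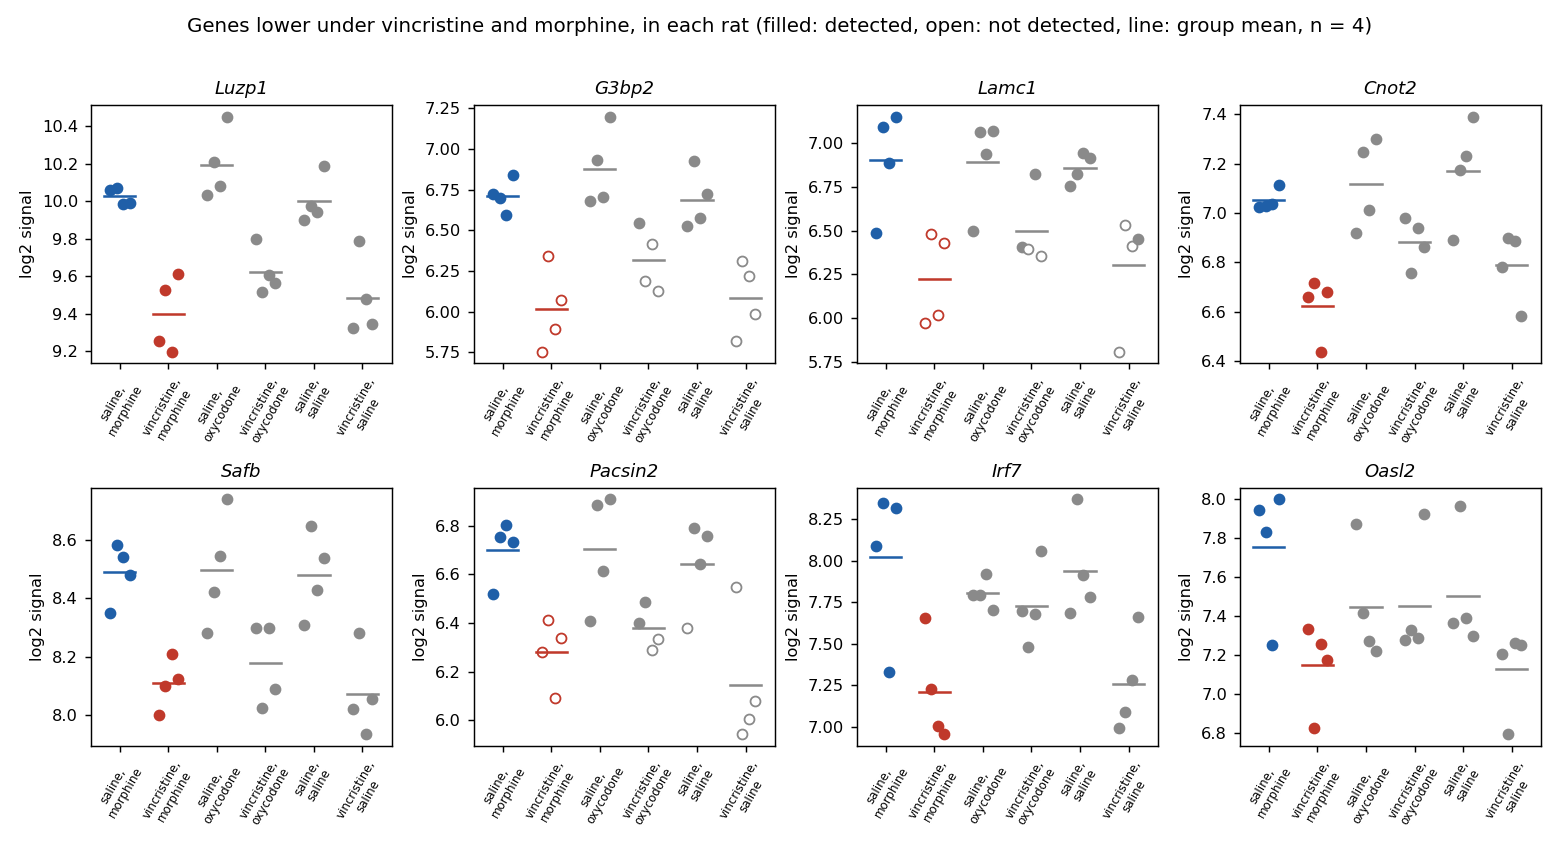
Log2 signal (y axis) of 8 genes with lower levels in each rat of the 6 groups (x axis), with saline-morphine in blue and vincristine-morphine in red; filled points were detected, open points were not, and lines are group means of 4 rats. Luzp1, G3bp2, Lamc1, Cnot2, Safb and Pacsin2 do not overlap between the blue and red rats, and Irf7 and Oasl2 do, with saline-morphine rat 3 among the red rats.

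Genes induced by interferon had lower means, with no member past the adjustment (limma). All 16 measured genes of the list had a lower mean in the vincristine-morphine rats, with a median of -0.27, and 2 of them had an unadjusted p under 0.05 (limma), against 1.44% of all genes. The mean over the list was 7.63 to 7.73 in the 4 vincristine rats and 7.85 to 8.21 in the 4 controls, which did not overlap. Of 45 lists, list means did not overlap for 4 with higher means (globins, red cell precursors, lipoxygenases with Alox15, and nerve injury) and 2 with lower means (interferon and the integrated stress response). Chance gives this for a share of 0.0286 of unrelated lists. Some of these lists share genes, and all were chosen with earlier results of these data known. The number of lists without overlap is therefore a description and not support for a difference. Alox15 is in both the red cell precursor and the lipoxygenase list. It, Hemgn and Lgals5 passed the detection filter through vincristine-treated rats only, so the means of these lists are descriptions and not support for a difference. Macrophage and monocyte genes had lower means for 10 of 13 (median -0.11) and antigen presentation genes for 11 of 14 (median -0.07), none past the adjustment, and the part of these cells in the interferon values was not tested. Irf7, the transcription factor that amplifies interferon production, read 7.66, 7.23, 7.01 and 6.96 after vincristine and 8.09, 8.35, 7.33 and 8.32 in controls, a difference of -0.81 ± 0.21 (SE; adjusted p = 0.498). Saline-morphine rat 3, at 7.33, was the one control within the range of the vincristine rats. Rtp4, an interferon-induced chaperone of receptors that also binds opioid receptors, read 7.66, 7.71, 7.49 and 7.71 after vincristine and 8.38, 8.19, 7.67 and 8.12 in controls. Oasl2, an oligoadenylate synthetase-like antiviral gene named by its p and not by the list, read 7.33, 6.83, 7.26 and 7.18 after vincristine and 7.94, 7.83, 7.25 and 7.999 in controls, and here too saline-morphine rat 3 was the lowest control. Irgm, a GTPase against intracellular pathogens, differed by -0.30 ± 0.15, and by -0.19 without saline-morphine rat 4. The chemokines Cxcl9 and Cxcl10, which draw T cells, differed by -0.90 ± 0.53 and -0.57 ± 0.41, by -1.41 for Cxcl9 without vincristine-morphine rat 3 and by -0.32 for Cxcl10 without saline-morphine rat 4. By column set the list median was -0.29, -0.26, -0.07 and -0.48, lower in each and least so in set 3, which holds saline-morphine rat 3.

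The promoter of Irf7 and that of Oasl2 are given because they carry the interferon-stimulated response element, here GAAA, any 2 bases and GAAA, searched on both strands and marked in capitals. It was searched after the list had been seen to be lower.
Irf7 (chr1:205800024-205800273, minus strand): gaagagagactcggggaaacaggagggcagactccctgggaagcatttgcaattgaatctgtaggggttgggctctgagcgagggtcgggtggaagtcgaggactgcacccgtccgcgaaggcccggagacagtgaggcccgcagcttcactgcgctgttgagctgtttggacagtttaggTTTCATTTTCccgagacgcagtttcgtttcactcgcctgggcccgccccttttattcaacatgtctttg
Oasl2 (chr12:47383186-47383435, minus strand): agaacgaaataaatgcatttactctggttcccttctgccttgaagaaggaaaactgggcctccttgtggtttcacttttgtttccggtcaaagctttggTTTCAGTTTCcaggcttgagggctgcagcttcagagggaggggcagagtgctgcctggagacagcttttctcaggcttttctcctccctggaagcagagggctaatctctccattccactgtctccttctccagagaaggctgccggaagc

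Of the 16 genes, 14 were in the promoter table and 7 of these held the motif in the 250 bases, as did 3.61% of 27457 genes. Among the 7 were Cxcl10, Gbp2, Ifitm3 and Irgm. The list was made of interferon-induced genes, so this share reflects how the list was chosen, whatever the arrays showed. It describes the letters of the windows alone.

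Fibroblast and collagen genes mostly had lower means as well, by less. Of 33 measured, 29 were lower and 4 higher, with a median of -0.18 (-0.12 without vincristine-morphine rat 2). None passed the adjustment, and at an unadjusted p under 0.05 in limma 5 were lower and none higher (10 with the column set block, against 3.94% of all genes). Dcn, the proteoglycan decorin, read 12.65, 12.54, 12.67 and 12.84 in vincristine-morphine rats and 12.99, 12.88, 12.82 and 12.95 in controls, a difference of -0.24 ± 0.10. Col1a2, a chain of type I collagen, read 13.45, 13.52, 13.56 and 13.74 after vincristine and 13.85, 13.72, 13.77 and 13.67 in controls, a difference of -0.19 ± 0.08. For both, 1 vincristine rat reached into the range of the controls, which lay close together. Fap, the fibroblast activation protein, differed by -0.32 ± 0.12, but was detected in 2 controls and no vincristine rat. The list means overlapped, at 9.14 to 9.56 against 9.28 to 9.59, and the list medians by column set were -0.04, -0.19, -0.29 and -0.05.

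Immediate early genes, which cells switch on within minutes of a stimulus, were lower for 11 of 14 measured, with a median of -0.20 and none past the adjustment. Without saline-morphine rat 3 the median was -0.10. Junb, a subunit of the AP-1 factor, read 7.43, 7.03, 7.65 and 7.41 against 7.42, 7.67, 7.95 and 7.96. Zfp36, which speeds the decay of cytokine mRNA, read 7.90, 7.61, 7.92 and 7.73 against 7.78, 8.47, 8.09 and 8.16, and Dusp1, a phosphatase of MAP kinases, 9.61, 9.26, 9.52 and 9.34 against 9.61, 9.54, 9.85 and 9.70. The groups overlapped for all 3. Fos and Arc did not pass the detection filter. The lower median came from column sets 3 and 4 (-0.41 and -0.18), with 0.03 and 0.01 in sets 1 and 2. Atf4, the main transcription factor of the integrated stress response, differed by -0.23 ± 0.08, and Hmox1, the haem oxygenase that breaks down haem, by -0.42 ± 0.15, neither past the adjustment.

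Several lists of neuronal genes had medians close to that of all genes. Of 13 nociceptor genes 7 were higher and 6 lower, of 27 voltage-gated and TRP channel genes 12 were higher, of 20 genes of opioid receptors, peptides and signalling 11, and of 8 genes of GABA receptors and handling 3, with medians between -0.02 and 0.01. Of 16 genes of nerve injury and regeneration 11 were higher, with a median of 0.08 and none past the adjustment, and the list means did not overlap (9.24 to 9.41 against 9.02 to 9.23). None of the first 4 lists had a gene with an unadjusted p under 0.05 in limma (2.2% of all probes did). Gabbr2, the subunit of the GABA-B receptor that the study followed, read 11.17, 11.08, 11.28 and 11.12 after vincristine and 11.19, 11.08, 11.16 and 11.36 in controls. The difference was -0.04 ± 0.09 (SE) with a 95% interval of -0.23 to 0.16, and the groups overlapped. The study reported higher Gabbr2 with oxycodone than with morphine in vincristine-treated rats, a different comparison that these values do not address. The mu-opioid receptor gene Oprm1 did not pass the detection filter. The larger differences of this kind were in neuropeptides. Npy, neuropeptide Y, which injured large sensory neurons make, read 10.27, 7.66, 8.21 and 8.01 in vincristine-morphine rats and 5.70, 6.99, 7.08 and 7.21 in saline-morphine rats. Its groups did not overlap, and the difference of 1.79 ± 0.67 (95% interval 0.39 to 3.20) did not pass. Saline-morphine rat 1 lay well below the other controls, and vincristine-morphine rat 1 well above the other vincristine rats. With each rat left out in turn, the Npy difference was 1.22 to 2.09. Gal, galanin, also made after nerve injury, was detected in 4 vincristine rats and in 1 control (6.69, 7.07, 6.41 and 6.56 against 6.12, 6.07, 6.41 and 6.47), with overlapping values. Crh, corticotropin-releasing hormone, differed by -1.30 ± 0.62 the other way, and by -0.68 without vincristine-morphine rat 1. Among myelinating Schwann cell genes 11 of 14 were lower. Gldn, which gathers sodium channels at nodes, differed by -0.26 ± 0.10 (-0.15 without saline-morphine rat 2) and Bcas1 by -0.29 ± 0.12, neither past the adjustment. Skeletal muscle genes were higher for 14 of 15 and none passed. Their medians by column set ranged from -0.49 to 3.70. Adipocyte genes were higher for 7 of 7, with list means of 8.34 to 9.21 against 8.18 to 8.59, and none passed.

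**Figure D3:**
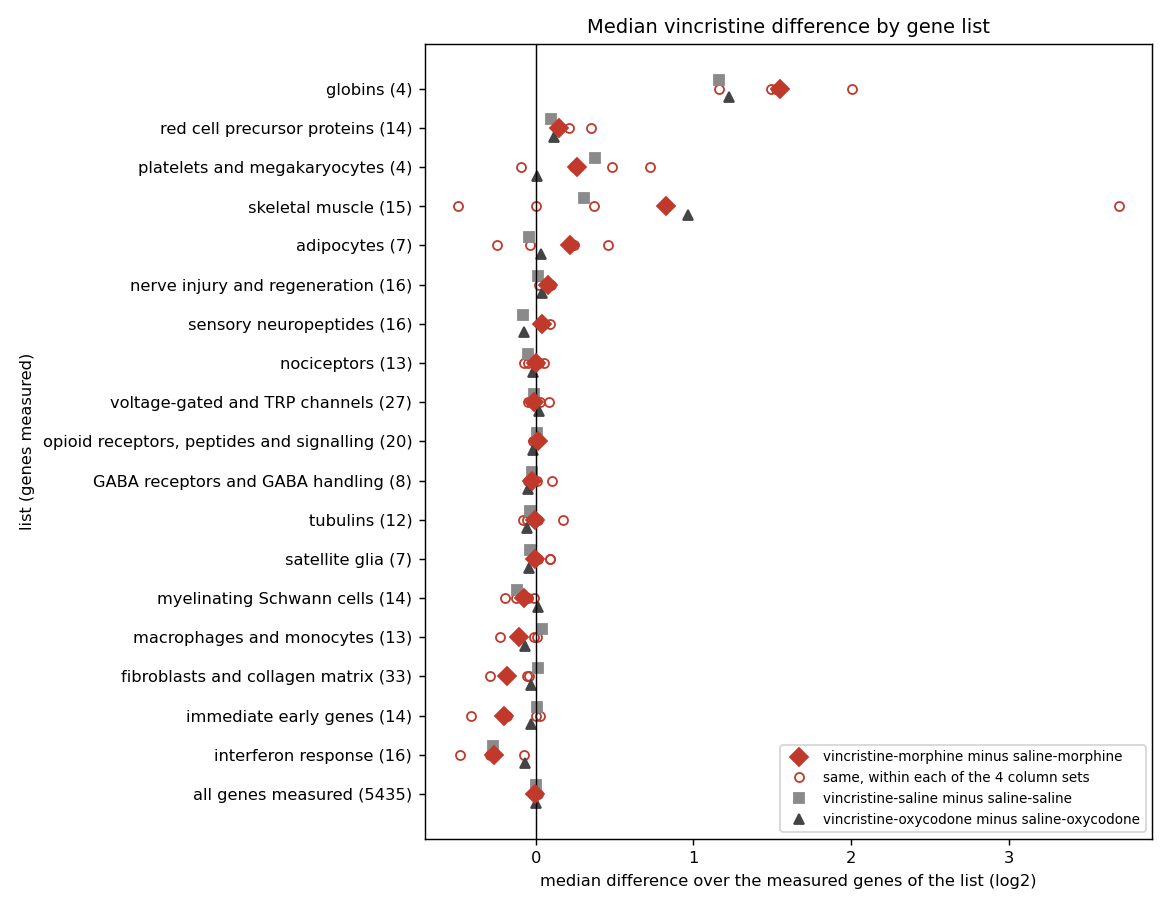
Median vincristine difference (x axis, log2) over the measured genes of each list (y axis, number of genes in brackets); red diamonds are under morphine, open red circles the same within each column set, grey squares under saline and dark triangles under oxycodone. The globins lie at 1.55 under morphine, the interferon genes at -0.27, and all genes at -0.01; the skeletal muscle circles spread most.

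The vincristine differences were set beside those in rats given saline or oxycodone. No probe passed the adjustment for a difference of the vincristine effect under morphine from that under saline (80 of 7043 or 1.14% had an unadjusted p under 0.05, limma) or under oxycodone (210 or 2.98%). With the column set block no probe passed either (274 or 3.89% and 618 or 8.77% unadjusted). The genes called under morphine had differences of the same sign in all 3. Alox15 differed by 4.56 ± 0.42 under saline and 3.89 ± 0.42 under oxycodone. Since its level was below detection in every rat pre-treated with saline, these sizes rest on background signals and are not compared between the arms. Hba-a3 differed by 2.43 ± 0.36 under saline and 2.01 ± 0.36 under oxycodone, with intervals of the excess under morphine of -0.65 to 1.47 and -0.22 to 1.89. Luzp1 differed by -0.52 ± 0.11 and -0.57 ± 0.11, with intervals of -0.44 to 0.22 and -0.39 to 0.27. All 7 named genes called with or without the block had their largest measured difference under morphine, the comparison they were called in. For Alox15 and Hemgn, detected in no saline-morphine rat, this order rests on background signals and does not compare sizes.

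Some gene groups had unlike values in the 3 arms, with no gene past the adjustment. The interferon list had a median of -0.27 under saline and -0.07 under oxycodone. Irf7 was lower by 0.68 under saline and 0.07 under oxycodone, and the interval of its difference of effects from oxycodone was -1.35 to -0.13, without passing the adjustment. The fibroblast and collagen list was at 0.01 and -0.03 in those arms and the immediate early list at 0.01 and -0.03, against -0.18 and -0.20 under morphine. Mean levels of the immediate early list were 8.12 in saline-morphine rats and 7.95 to 8.003 in the 5 other groups. Of fibroblast genes the saline-morphine mean (9.45) was the highest and the vincristine-morphine mean (9.27) the lowest of the 6 groups.

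Morphine and oxycodone are opioids of the same ring skeleton, with a methyl ether, a ketone and an added hydroxyl group in oxycodone, and the study gave both at the same dose. This was the 1 pair of drugs compared, with p adjusted over all probes, and no probe passed for a difference of the vincristine effect between them. The smallest p of a named gene was that of Bcas1, an oligodendrocyte and Schwann cell protein of myelin, which differed by -0.29 under morphine and 0.44 ± 0.12 under oxycodone (interval of the difference of effects -1.08 to -0.39). Atf4 was at -0.23 and 0.12 ± 0.08 (interval -0.58 to -0.13), and Zfp36 at -0.34 and 0.33 ± 0.14 (interval -1.09 to -0.25). Against saline, Arglu1, which binds splicing factors, was at 0.31 under morphine and -0.16 ± 0.09 under saline (interval 0.20 to 0.74). Fam135a was higher by 0.31 under morphine and at -0.10 ± 0.10 and -0.15 ± 0.10 in the other arms. Cldn3, a claudin of tight junctions, was 6.67, 6.48, 6.45 and 6.28 in vincristine-morphine rats, where 2 arrays detected it, and 5.83, 6.04, 6.02 and 6.18 in saline-morphine rats, where none did. It was at 0.05 ± 0.12 and -0.0014 ± 0.12 in the other arms. All of these intervals are those of single genes before adjustment.

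**Figure D4:**
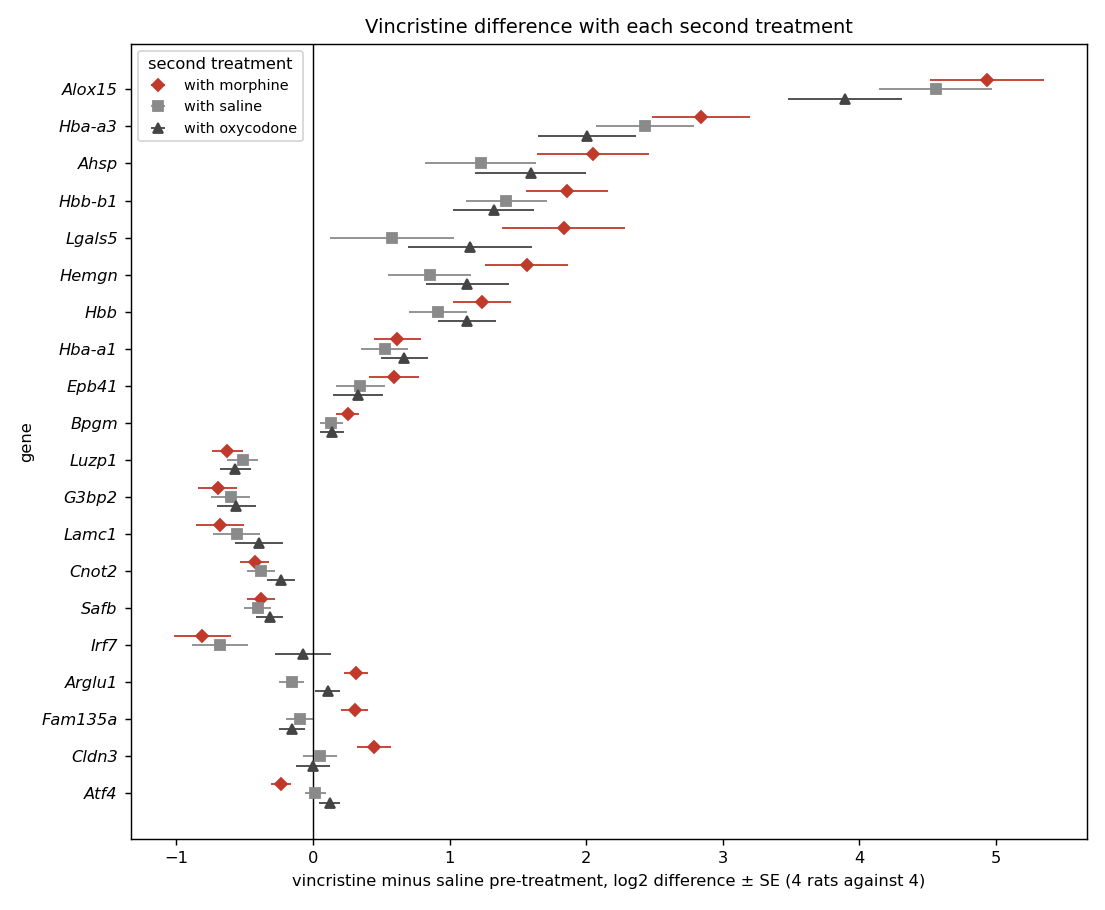
Vincristine difference (x axis, log2, points with SE, 4 rats against 4) of 20 genes (y axis) with morphine (red), saline (grey) or oxycodone (dark) as the second treatment. Red cell genes lie right of 0 and Luzp1 to Safb left of 0 in all 3; Irf7, Arglu1, Fam135a, Cldn3 and Atf4 lie apart in at least 1.

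Of the 64 probes higher at an unadjusted p under 0.05, 40 had the same sign under saline and 37 under oxycodone. Without the genes of the globin, red cell and haem lists it was 30 and 27 of 54. Of the 91 lower probes 58 and 45 had the same sign. Over all probes the share was 50.8% and 43.1%. These are counts, with no test.

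A few of the largest single differences came from probes that had separate high and low rats within a group. Eef2k, the kinase that slows translation elongation, read 8.75, 8.59, 8.88 and 8.55 in vincristine-morphine rats and 6.96, 8.92, 6.99 and 6.65 in saline-morphine rats, where rat 2 alone was high. Over all 24 rats it lay between 6.44 and 7.26 in 7 and between 8.51 and 9.63 in 17. Dynlt3, a dynein light chain, was 11.53, 11.72, 11.64 and 11.94 after vincristine and 9.38, 11.52, 8.41 and 11.43 in controls, with 4 of 24 rats at 9.38 or lower and 20 at 11.43 or higher. Sc5d, an enzyme of cholesterol synthesis, read 9.16, 9.13, 9.33 and 9.58 after vincristine and 8.49, 9.33, 8.44 and 8.58 in controls. Saline-morphine rats 1, 3 and 4 were the low ones for Sc5d, as they were for Eef2k. Rnf113a2, a ring finger gene, read 7.79, 6.79, 6.92 and 4.48 after vincristine and 4.69, 4.57, 4.49 and 7.21 in controls, low in 1 vincristine rat and 3 controls and high in the rest. Sorbs2, an adaptor of actin fibres, read 6.29, 4.41, 6.32 and 5.91 after vincristine and 7.22, 7.33, 7.09 and 7.21 in controls, with 3 of 24 rats between 4.31 and 4.41 and 21 at 5.91 or higher. The differences were 1.31 ± 0.57, 1.52 ± 0.78, 0.59 ± 0.26, 1.25 ± 0.65 and -1.48 ± 0.62 (SE), and none passed the adjustment. For Eef2k, Dynlt3, Sc5d and Rnf113a2 the vincristine difference had the opposite sign under saline.

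**Figure D5:**
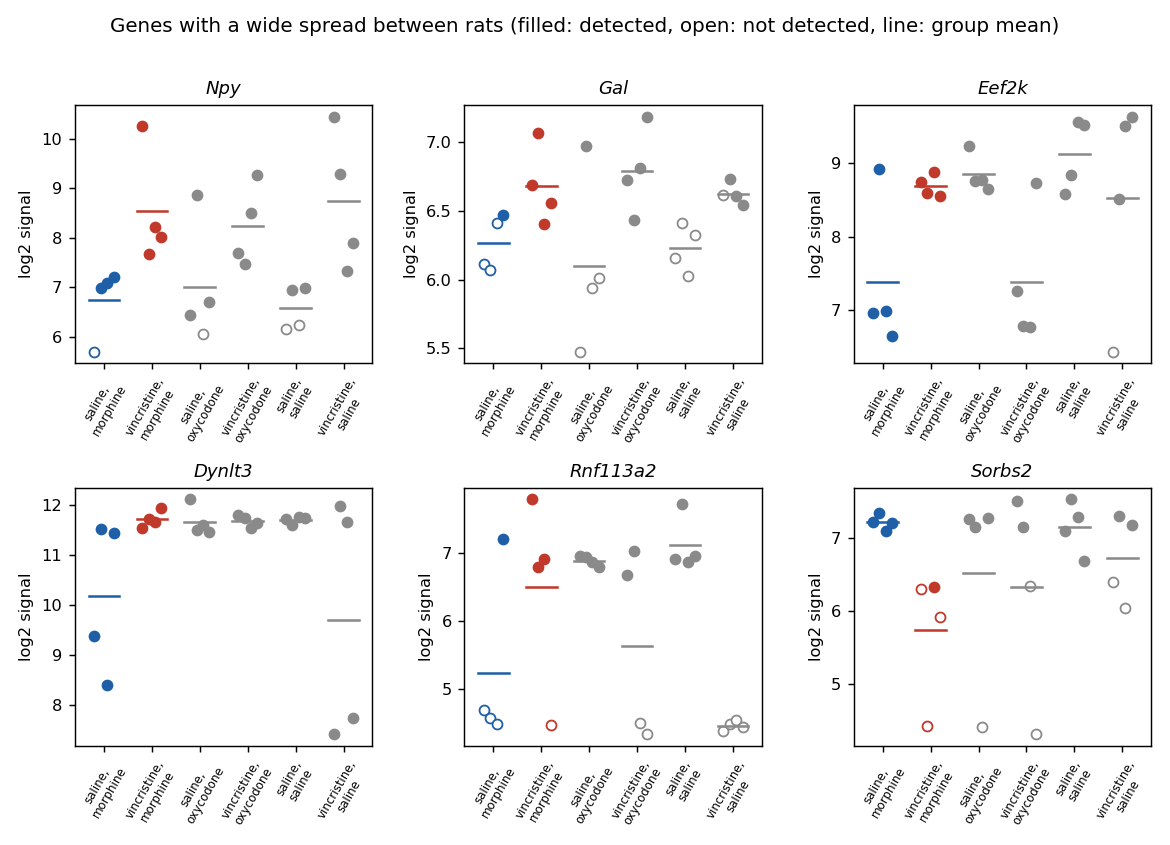
Log2 signal (y axis) of 6 genes in each rat of the 6 groups (x axis), with saline-morphine in blue and vincristine-morphine in red; filled points were detected, open points were not, and lines are group means. Eef2k, Dynlt3 and Rnf113a2 fall into separate high and low rats that cross the groups, and in Sorbs2 3 of the 24 rats, 1 of them vincristine-morphine, lie far below the rest.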

How the data were processed

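Lumbar DRG RNA of 24 rats was measured on 1 array each, and the 8 arrays of morphine-treated rats are described. The authors deposited signal intensities on a linear scale, not normalized between arrays, with detection p-values, and log2 values. The log2 values deposited by the authors match quantile-normalized log2 signals. The scanner software and genome build are not given in the sources used here. Background correction and quantile normalization (neqc, offset 16), a fit of 6 group means to 24 arrays (18 residual degrees of freedom), contrasts, and empirical Bayes tests used limma 3.58.1 in R 4.3.3 with the data.table package (1.17.8), adjusted by Benjamini-Hochberg at 0.05 within each comparison. A gene was represented by its kept probe with the highest mean. Of 22517 probes, 13787 had 1 gene name and 8730 none or several. Symbols were updated to RefSeq by Entrez ID for 13747 and by accession for 5. The smallest two-sided exact permutation p of 4 against 4 (70 regroupings) is 0.0286, reached by every gene with groups that do not overlap. The number of arrays limits the precision. Replicate numbers did not pair the rats. Named genes were those called, the 8 per direction with the smallest p or largest size, up to 6 members per list by size of t, a list of genes from earlier results, and the leading genes of the differences of effects. Of 270 such genes 51 are described, picked with their values known. The members, the 46 lists and the named genes were chosen with earlier results of these data known. In a group without detection of a probe, the fold is bounded with, per array of that group, the higher of the lowest detected signal and the signal of the probe. The other group enters with its measured signals, also on arrays without detection, where the bound is approximate. The alternatives tried are in the closing section. The fit without a block was run on simulated data with independent noise and no column set effect. As the real arrays do have such an effect, this checks the code and not the fit on these data.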

Additional observations from a re-analysis of the deposited data

Results flagged for a closer look

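Of 124 sets of 4 rats examined (the 51 genes and the means of 11 of the 46 lists, in both groups), 10 had 1 rat far from the other 3 by Dixon's test, and chance gives about 1 in 20. Vincristine-morphine rat 1 was the lowest for Hba-a1, at 13.69 against 13.98 to 14.01, and the highest for Pf4, at 11.64 against 8.40 to 8.93. Vincristine-morphine rat 2 was the lowest for Fam135a, at 7.88 against 8.09 to 8.10. Saline-morphine rat 1 was the lowest for Npy, at 5.70 against 6.99 to 7.21. Saline-morphine rat 2 was the highest for Eef2k (8.92 against 6.65 to 6.99) and for Sc5d (9.33 against 8.44 to 8.58). Saline-morphine rat 3 was the highest for Cdk16, at 8.90 against 8.71 to 8.73. Saline-morphine rat 4 was the highest for Cnot2 (7.11 against 7.02 to 7.04), for Rnf113a2 (7.21 against 4.49 to 4.69) and for the mean of the skeletal muscle genes (9.35 against 6.15 to 6.40).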

How the results depend on the processing

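The count of 5 probes called became 8 with the column set as a block, 11 with the looser detection filter, 12 with array weights and 1 without the arrays with high muscle genes. It was 2 to 8 when each rat was left out in turn, 2 of them (Alox15 and Hba-a3) being called in all 8 fits. The methods' t-test gave 160 probes unadjusted and 0 after Benjamini-Hochberg. With the replicate number as a block 7 probes were called. These numbers did not pair the rats: deviations of rats with the same number correlated at -0.52, 0.03, -0.07 and -0.53. Deviations of rats in the same column set correlated at 0.76, 0.29, 0.09 and 0.38, which the fit without a block does not use. The differences of effects between second treatments stayed at 0 calls in all 10 alternatives run for each. Of 1104 values of the 51 genes under alternatives 1103 kept their direction, and Gabbr2 changed sign in 1 (0.02). Medians were recomputed for 11 lists, and 219 of 231 kept their direction, with exceptions for nociceptors (11 of 21 kept), macrophages and sensory neuropeptides (20 of 21 each). Leaving out 1 rat moved 12 of the 51 gene differences and 8 of the 11 list medians by over 1.5 times, none of them a called gene. Beside those given above these were Dynlt3 (0.93 without saline-morphine rat 3), Fap (-0.21 without saline-morphine rat 2), Zfp36 (-0.22 without saline-morphine rat 2), Zfp593 (-0.02 without saline-morphine rat 1, -0.23 without rat 2), Rnf113a2 (0.82 to 1.93), Gabbr2 (-0.08 to 0.02) and the medians of adipocytes (down to 0.07), skeletal muscle (0.29 to 1.71), macrophages (up to -0.04), myelinating Schwann cells (down to -0.15), nociceptors (-0.04 to 0.01) and sensory neuropeptides (0.01 to 0.09). With the stricter filter Alox15 was not tested, as it lay below detection in the control arrays. Causes of the other changes were not tested. Array number limits precision, and low signals near background give bounds only.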
